A study of Mus musculus with 33 samples.

Results

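The vomeronasal type 1 receptor (V1R) genes were taken as every gene whose symbol is Vmn1r followed by digits alone, which gave 231 of the 55487 genes listed (230 symbols, because 1 symbol stands for a pair of identifiers). Their RNA was followed in 33 libraries of mouse embryonic stem cells (ESCs) of strain C57BL/6, in 11 groups of 3. The ESCs lacked HP1α, HP1β or HP1γ alone (Hp1α Δ/Δ, Hp1β Δ/Δ, Hp1γ Δ/Δ), a pair of them (α with β in Hp1α/β Δ/Δ, α with γ in Hp1α/γ Δ/Δ, β with γ in Hp1β/γ Δ/Δ) or all 3 (Hp1α/β/γ Δ/Δ). A pair of wild-type sets, here A and B, carried the same genotype label, and the last groups were Setdb1 F/F ESCs with a floxed Setdb1 gene (labelled SETDB1FF) and their deleted counterpart Setdb1 Δ/Δ (labelled SETDB1KO). The single and double mutants were CRISPR/Cas9 lines grown from single clones. The triple mutant was made by Cre transfection of cells that already lacked HP1α and HP1β and carried floxed Hp1γ, and Setdb1 Δ/Δ cells by Cre-mediated deletion in the Setdb1 F/F line. The study took the triple mutant RNA within days of the transfection. It reports widespread apoptosis and a cell-cycle arrest in these cells, whereas the single and double mutants were constitutive lines. ESCs were grown on mouse embryonic fibroblast feeders with LIF. The deposited tables set Hp1α Δ/Δ, Hp1β Δ/Δ, Hp1γ Δ/Δ, Hp1α/β Δ/Δ and Hp1α/β/γ Δ/Δ against wild-type set A. They set Hp1β/γ Δ/Δ, and likewise Hp1α/γ Δ/Δ, against wild-type set B. The study's text describes a control arm of the floxed cells with a control vector, but the control libraries carry the label WT and held Cbx1 and Cbx5 well above the triple mutant. Whether they received any vector is not given in the sources used here, so the loss of the HP1 proteins and the exposure to Cre cannot be told apart in the comparison with set A. The reported cell death and arrest cannot be separated from the loss there either. The sources also do not say whether the Setdb1 F/F libraries received a vector. The loss of SETDB1 and the exposure to Cre therefore cannot be told apart either.

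V1Rs are G protein-coupled receptors for pheromones. Each sensory neuron of the apical layer of the vomeronasal organ, in the nose, is thought to use a single receptor of the family, which signals through the G protein subunit encoded by Gnai2 and the cation channel encoded by Trpc2. The genes lie in clusters of related copies with a single coding exon, and ESCs have no known use for them. HP1 proteins bind histone H3 methylated at lysine 9, and SETDB1 is an enzyme that writes the trimethylated form of this mark, which keeps many genes silent.

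The libraries held 17330936 to 25743149 estimated counts. Levels are counts scaled to a library of 1000000 (CPM) scaled by the trimmed mean of M-values (TMM) over all 33 libraries, and a count floor of 3 in a library stood at a median of 0.141 CPM. Intervals and floors cover counting error only. The study's methods call the libraries of a group biological replicates, and the labels do not say how the cultures were separated, so p-values measure the spread between these libraries. The targeted transcripts were lower in the mutants without vanishing. By western blot the study reports the HP1 proteins and SETDB1 as absent from the respective mutants. By RT-PCR it reports a shorter residual transcript in its methyltransferase mutants. The RNA levels given here therefore do not measure remaining protein. Cbx5, which encodes HP1α, stood at 177 ± 2.53 CPM (SD, n = 3) in Hp1α Δ/Δ against 484 ± 6.05 in wild-type set A. Cbx1 (HP1β) stood at 46.2 ± 2.81 and Cbx3 (HP1γ) at 64.6 ± 2.53 in the triple mutant, against 439 ± 7.69 and 177 ± 7.39 in set A. Cbx5 was less reduced there, at 282 ± 4.12 CPM (log2 fold change -0.81 against set A, under the fold threshold), and stood above its 203 ± 4.25 CPM in Hp1α/β Δ/Δ. Setdb1 stood at 69.9 ± 1.83 CPM in Setdb1 Δ/Δ and 132 ± 2.67 in Setdb1 F/F. Replicate 2 of Hp1α/γ Δ/Δ stood apart, with 85.1 CPM of Cbx5 against 181 and 182 in the other libraries of that group, so the main results on this group are given with and without it.

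Of the 231 Vmn1r genes, 115 had a count in at least 1 library and 116 had none, which allows at most 3 counts in any library. Setdb1 Δ/Δ and Hp1α/β/γ Δ/Δ cells stood out in both the number of genes seen and their summed level. Set A libraries held 34, 36 and 37 genes with a count, and triple mutant libraries 61, 50 and 63. In Setdb1 F/F 42, 36 and 38 genes had a count, and in Setdb1 Δ/Δ 64, 63 and 63. No library of either mutant overlapped its control. The triple mutant library with 50 genes did lie within the range of Hp1β/γ Δ/Δ, whose libraries held 44, 51 and 51. Thinned to the lowest library total, the expected means were 30.2 and 51.2 for set A and the triple mutant, and 33.3 and 55.6 for Setdb1 F/F and Setdb1 Δ/Δ. Hp1α/β Δ/Δ and the single mutants held 32.3 to 36.0 genes with a count on average, wild-type set B 38.3, Hp1β/γ Δ/Δ 48.7 and Hp1α/γ Δ/Δ 47.0 (48.5 without its replicate 2).

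The summed CPM of the 231 genes was also highest in Setdb1 Δ/Δ and next highest in the triple mutant. Set A libraries summed to 12.3, 13.8 and 12.3 CPM and triple mutant libraries to 53.2, 49.0 and 50, a ratio of means of 3.97. They were 17.4, 19.0 and 17.3 in Setdb1 F/F and 68.7, 74.7 and 68.6 in Setdb1 Δ/Δ, a ratio of 3.95. In each of these comparisons every mutant library was far above every control library, although a sum over the members was given no test and 3 libraries against 3 cannot give an exact permutation p under 0.1. Against the Hp1α/β Δ/Δ cells, with 11.1, 11.9 and 10.9, the triple mutant was higher by a ratio of 4.49. Hp1α/β Δ/Δ and the single mutants stayed between 9.57 ± 0.614 (Hp1α Δ/Δ) and 11.9 ± 1.74 (Hp1β Δ/Δ), means that all lay below that of set A. Set B stood at 15.4 ± 1.45 (16.5, 13.8 and 15.9), Hp1β/γ Δ/Δ at 20.4 ± 0.922 (21, 20.8 and 19.3) and Hp1α/γ Δ/Δ at 19.5 ± 4.34 (21.7, 14.5 and 22.4). Replicate 2 was the low library of Hp1α/γ Δ/Δ, and the log2 ratio of this group to set B was 0.34 with it and 0.51 without it. In bulk RNA, fewer cells of a type and less RNA per cell cannot be told apart, so these sums do not say how many cells carried a receptor transcript.

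**Figure D1:**
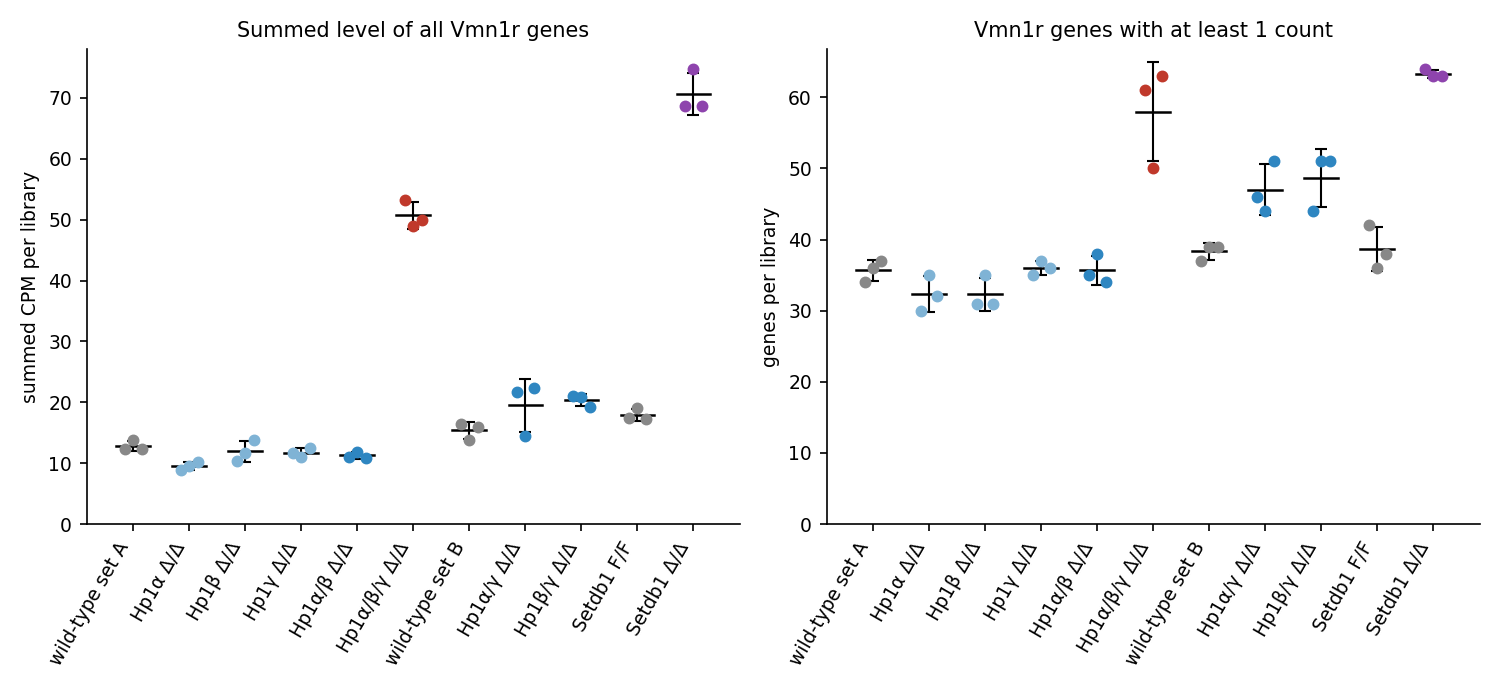
Summed CPM of the 231 Vmn1r genes (left) and number of Vmn1r genes with at least 1 count (right) in each library, by group. Points are libraries, and bars give the mean and SD of 3 libraries. The triple mutant (mean 50.7 CPM) and Setdb1 Δ/Δ (70.7 CPM) lie above all other groups in summed CPM, whose means run from 9.57 to 20.4 CPM.

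The genes that V1R neurons use for signalling did not move together with the receptors. Trpc2 had no count in any library of the triple mutant, of Setdb1 Δ/Δ or of their controls, and 1 count in all 33 libraries. Gnai2 fell in both mutants, from 299 ± 8.01 to 114 ± 3.76 CPM in the triple mutant (log2 fold change -1.42, SE 0.0316, adjusted p = 2.11e-18) and from 223 ± 5.13 to 90.3 ± 3.19 CPM in Setdb1 Δ/Δ (-1.31, SE 0.0307, adjusted p = 9.16e-17). Omp, a marker of mature olfactory and vomeronasal neurons, rose from 0.548 ± 0.204 to 2.44 ± 0.588 CPM in the triple mutant (2.12, SE 0.359, adjusted p = 2.53e-05), and had 0.926 ± 0.0684 and 0.777 ± 0.029 CPM in Setdb1 F/F and Setdb1 Δ/Δ. Of the 10 listed genes of this neuron, 9 were tested in the triple mutant, with 3 higher (Omp, Meis2 and Bcl11b) and 3 lower (Gnai2, Gng8 and Gap43), where 25.1% of all tested genes were higher and 17.1% lower. In Setdb1 Δ/Δ 8 were tested, with 2 higher (Meis2 and Lhx2) and 4 lower (Gnai2, Gng13, Ncam1 and Gap43), where the shares over all genes were 18.5% and 11.4%.

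Markers of other cell states also differed between the mutants and their controls. The summed CPM of 10 ESC markers was 3760 ± 27.4 in set A, 1580 ± 24.0 in the triple mutant, 7910 ± 19.4 in Setdb1 F/F and 5280 ± 21.9 in Setdb1 Δ/Δ. In the triple mutant 7 of 10 tested markers were lower, where 17.1% of all tested genes were. In Setdb1 Δ/Δ 2 of 10 were lower, where 11.4% of all tested genes were. A list of 6 genes of 2-cell-like cells, a rare state of ESC cultures that resembles the early embryo, summed to 0 CPM in set A, 14.4 ± 0.862 in the triple mutant, 0.104 ± 0.082 in Setdb1 F/F and 51.7 ± 2.56 in Setdb1 Δ/Δ. It also reached 39.2 ± 0.864 in Hp1β/γ Δ/Δ against 0.107 ± 0.0682 in set B, where the Vmn1r sum was 20.4 against 15.4 CPM. All 4 tested genes of this list rose in the triple mutant, all 5 in Setdb1 Δ/Δ and all 6 in Hp1β/γ Δ/Δ. The shares of all tested genes that rose were 25.1%, 18.5% and 7.32%. With next to no counts in the controls, these genes passed the low-count filter only through the mutants. That all of those tested rose was thus fixed in advance, and the tally is a description alone. The 10 fibroblast markers summed to 29.0 ± 1.04 CPM in set A, 13.3 ± 0.825 in the triple mutant, 10.8 ± 0.655 in Setdb1 F/F and 5.42 ± 0.668 in Setdb1 Δ/Δ. In the triple mutant 3 of 7 tested fibroblast markers were lower, among them Thy1 (14.0 ± 0.407 to 1.33 ± 0.266 CPM), and 1 was higher, the collagen gene Col3a1 (0.731 ± 0.368 to 4.39 ± 0.315 CPM). Over all tested genes 17.1% were lower and 25.1% higher. In Setdb1 Δ/Δ 2 of 3 were lower, where 11.4% of all tested genes were. The part of these cell states in the Vmn1r levels was not tested.

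Few of the 231 genes carried enough counts for a test. In the annotation the family sits on chromosomes 7 (124 genes), 6 (52), 13 (36), 17 (14) and 4 (2), with single genes elsewhere. Only 22 genes passed the filter on low counts (edgeR's filterByExpr with a minimum count of 10) in at least 1 of the 10 comparisons, and 209 passed in none. A gene that is high in 1 group can pass through that group alone, so the genes that passed are not a sample of the family. Of the 94 genes with a listed transcript length over 2000 bases, 73 had a count and 15 were tested, and of the 137 shorter ones 42 had a count and 7 were tested. Copies at 97% identity or more added almost nothing. Of the 88 genes whose coding sequence matched that of another Vmn1r gene at 97% or more, 13 had a count, none was tested, and together they held 0.776% of all Vmn1r counts. Most of these lie in a cluster of 86 genes on chromosome 7 (chr7:20099680-24063554, GRCm38), where the median identity to the nearest copy was 99.9% and the sum was 0.309 ± 0.0473 CPM in the triple mutant and 0.72 ± 0.337 in Setdb1 Δ/Δ. The identity also falls with a difference in length. Vmn1r9 and Vmn1r10 (15 differing bases) and Vmn1r47 and Vmn1r48 (24 differing bases) thus lie outside this class, each pair at 94.5%. How the estimated counts divided reads among copies was not tested.

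Vmn1r9 was the member that set the triple mutant apart. It lies on chromosome 6 (chr6:57066787-57074906, plus strand, GRCm38), between Vmn1r8, 29396 bp to its left, and Vmn1r10, 34548 bp to its right. Its coding sequence of 897 bases is 94.5% identical to that of Vmn1r10 (15 differing bases over the aligned part, with a longest identical run of 284 bases), its nearest copy in the family. A stretch of 150 coding bases from each gene is shown because it holds the most differences of any such stretch, and so shows where reads could separate the pair. Bases in capitals differ between the pair, from GENCODE M21 transcripts placed on GRCm38, at chr6:57071163-57071312 (plus strand) and chr6:57113646-57113795 (plus strand), both within 1 exon.
Vmn1r9: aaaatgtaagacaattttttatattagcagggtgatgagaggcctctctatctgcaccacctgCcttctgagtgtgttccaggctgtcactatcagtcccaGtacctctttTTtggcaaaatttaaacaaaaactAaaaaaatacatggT
Vmn1r10: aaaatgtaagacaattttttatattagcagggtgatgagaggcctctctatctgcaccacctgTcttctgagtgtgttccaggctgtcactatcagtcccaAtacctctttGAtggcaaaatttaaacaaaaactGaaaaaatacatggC

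Vmn1r9 had 436, 364 and 446 counts in the triple mutant (19.5, 18.1 and 17.9 CPM). It had 0 counts in all libraries of wild-type sets A and B, Hp1β Δ/Δ, Hp1γ Δ/Δ and Setdb1 F/F. The other groups held 2 counts in all (Hp1α Δ/Δ), 6 (Hp1β/γ Δ/Δ), 4 (Hp1α/γ Δ/Δ), 3 (Setdb1 Δ/Δ) and 1 (Hp1α/β Δ/Δ). No library outside the triple mutant came near its range. Against a floor of 3 counts in each library of set A, the mean of 18.5 ± 0.882 CPM was at least 132-fold higher. Against Hp1α/β Δ/Δ, whose single count still gives a ratio, it was 1190-fold higher, with a 95% exact interval of 214 to 47200. The quasi-likelihood test of edgeR, with Benjamini-Hochberg adjustment over all genes, gave Vmn1r9 an adjusted p of 4.6e-15 against set A and 4.93e-14 against Hp1α/β Δ/Δ. Its neighbours Vmn1r8 and Vmn1r10 had 0 counts in the triple mutant, and Vmn1r10 had none in any of the 33 libraries, even though it shares long stretches with Vmn1r9. Vmn1r9 alone made up 36.4% of the Vmn1r sum of the triple mutant. Without it the sum was 32.3 ± 1.37 CPM, still above every library of set A.

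**Figure D2:**
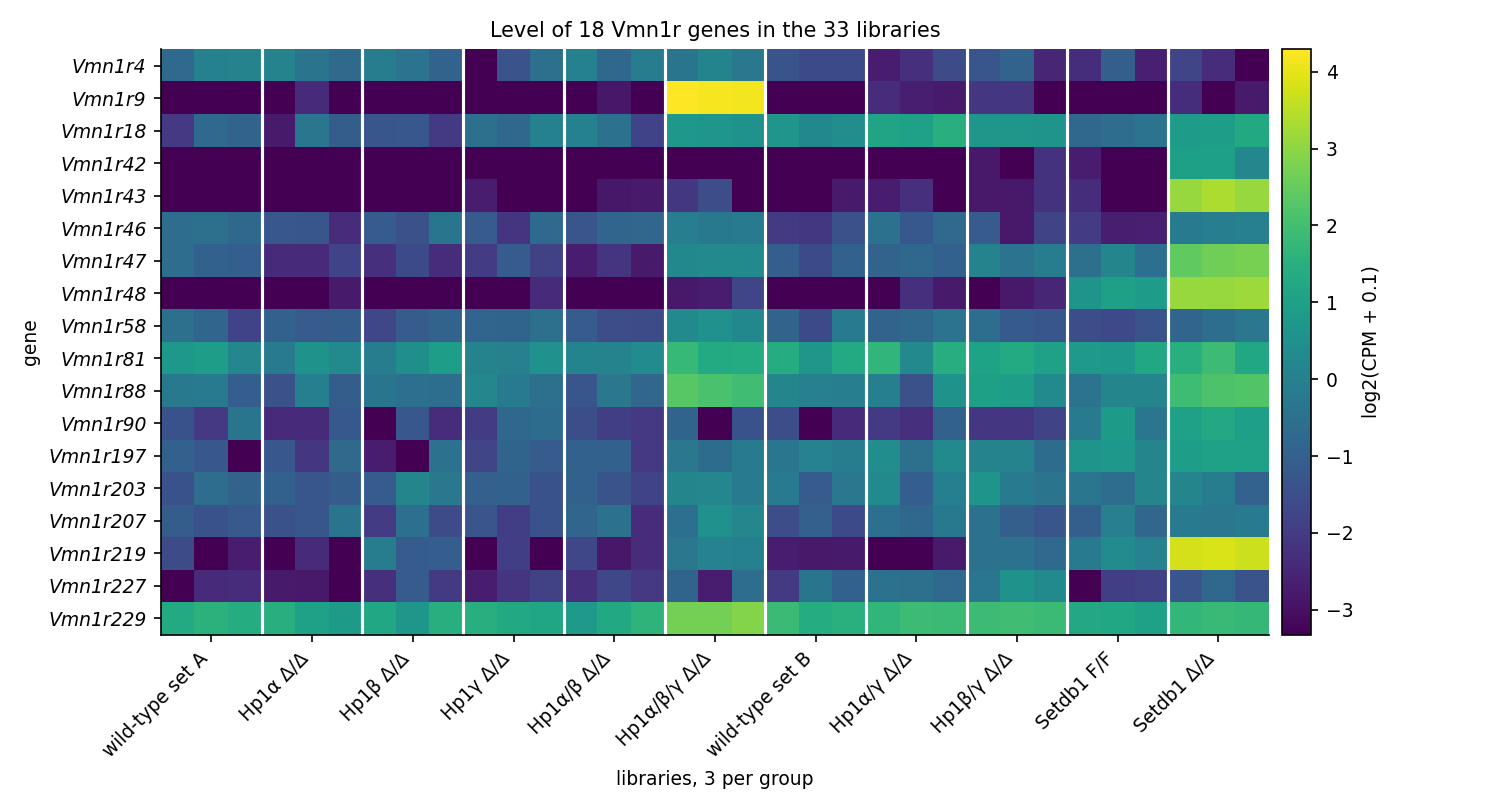
Level of the 18 Vmn1r genes named by rule (rows) in the 33 libraries (columns, 3 per group between white lines), as log2(CPM + 0.1). Vmn1r9 is bright in the 3 triple mutant libraries (18.5 CPM on average), and Vmn1r43, Vmn1r47, Vmn1r48 and Vmn1r219 in the 3 Setdb1 Δ/Δ libraries (6.00 to 13.8 CPM on average).

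A gene was counted as changed where the adjusted p was under 0.05 and the log2 fold change was over 1 in either direction. In the triple mutant against set A, 10 of 16 tested Vmn1r genes were higher and 0 lower, where 25.1% of all tested genes were higher and 17.1% lower. The median log2 fold change of the 16 was 1.30 and that of all tested genes 0.04, which is a description alone, since members such as Vmn1r9 passed the filter only through the triple mutant. After Vmn1r9, the members with the most CPM, a scale that does not correct for length, were Vmn1r229 (chr17:20811555-20823627) and Vmn1r88 (chr7:13159568-13185864). Vmn1r229, the most abundant member in CPM in every group other than the triple mutant and Setdb1 Δ/Δ, had 2.40, 2.86 and 2.55 CPM in set A and 6.39, 6.45 and 7.22 in the triple mutant. The groups did not overlap, with a log2 fold change of 1.33 (SE 0.173, adjusted p = 8.94e-07). Vmn1r88 had 0.739, 0.785 and 0.385 CPM in set A and 4.92, 4.22 and 3.81 in the triple mutant, again without overlap (2.72, SE 0.289, adjusted p = 5.7e-08). Vmn1r88 overlaps a processed pseudogene on its own strand, Gm4879, which had 0 counts in the triple mutant, both wild-type sets, Hp1β/γ Δ/Δ and both Setdb1 groups. Its left neighbour Gm7965 had 0 counts in these groups as well. The right neighbour of Vmn1r88, the noncoding RNA gene Gm38947, lies 6253 bp away on the opposite strand. Gm38947 rose from 190 counts in set A to 588 in the triple mutant (log2 fold change 1.52, SE 0.159). It also rose in Setdb1 Δ/Δ (3.25, SE 0.238) and Hp1β/γ Δ/Δ (2.95, SE 0.148).

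Vmn1r219 (chr13:23159312-23168154) had 0.231, 0 and 0.0481 CPM in set A and 0.715, 0.943 and 0.922 in the triple mutant, with no overlap and a log2 fold change of 3.10 (SE 0.653, adjusted p = 0.000256). Leaving out each library in turn moved the Vmn1r219 value between 2.52 and 4.84. The other members that rose in the triple mutant were at low levels, 0.674 to 1.49 CPM on average. Vmn1r18 (2.0), Vmn1r207 (1.54), Vmn1r58 (1.46) and Vmn1r47 (1.26) rose with adjusted p of 0.000341, 0.00488, 0.00439 and 0.00686. Vmn1r197 (1.40, adjusted p = 0.0411) and Vmn1r203 (1.12, adjusted p = 0.0224) passed narrowly. For them 8 and 7 of 12 alternatives kept the direction but lost the call, and 1 more reversed Vmn1r197. Set against wild-type set B, Vmn1r197 had a log2 fold change of -0.28 in the triple mutant and Vmn1r18 of 0.22, and both calls were lost. Vmn1r81 had an adjusted p of 0.0091 at a log2 fold change of 0.85, under the fold threshold. Vmn1r4, with 0.798 ± 0.251 CPM in set A and 0.795 ± 0.173 in the triple mutant, had a log2 fold change of -0.04 (SE 0.404, adjusted p = 0.93). Its left neighbour Nt5c3, 83 bp away on the opposite strand, held 1812 counts in set A and 1092 in the triple mutant. Whether any of its reads were counted for Vmn1r4 was not tested.

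The Hp1α/β Δ/Δ cells lack HP1α and HP1β as the triple mutant does, but they are a constitutive line without Cre transfection, so the loss of HP1γ and the exposure to Cre cannot be told apart here either. The same holds for the cell death and arrest reported in the triple mutant soon after the transfection. Cbx1 (-1.09, adjusted p = 9.27e-12) and Cbx5 (0.44, adjusted p = 3.52e-09) also differed between these groups. Here too 10 of 16 tested genes were higher in the triple mutant and 0 lower, against a background of 25.4% of tested genes higher and 16.0% lower. Members such as Vmn1r9, with 1 count in Hp1α/β Δ/Δ, passed the filter only through the triple mutant, so this tally is a description alone. The comparisons with set A and with Hp1α/β Δ/Δ share the triple mutant libraries. Vmn1r47 had 0.0515, 0.125 and 0.047 CPM in Hp1α/β Δ/Δ and 1.07, 1.09 and 1.16 in the triple mutant, a log2 fold change of 3.72 (SE 0.539, adjusted p = 9.9e-06). Vmn1r88 (3.04, SE 0.303), Vmn1r219 (2.88, SE 0.561) and Vmn1r58 (2.04, SE 0.415) followed. Vmn1r81, which had 0.978, 0.96 and 1.17 CPM in Hp1α/β Δ/Δ and 3.31, 2.43 and 2.45 in the triple mutant, passed in this comparison (1.36, SE 0.278, adjusted p = 0.000312). Vmn1r18 (1.33, adjusted p = 0.0107) lost its call without Hp1α/β Δ/Δ replicate 3, at 0.89, and Vmn1r207 (1.26, adjusted p = 0.038) lost it in 5 of 11 alternatives.

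In Setdb1 Δ/Δ cells the members with the most CPM, not corrected for length, were Vmn1r219, Vmn1r43 and Vmn1r48. In Setdb1 Δ/Δ against Setdb1 F/F, 11 of 18 tested Vmn1r genes were higher and 0 lower, where 18.5% of all tested genes were higher and 11.4% lower. The median log2 fold change of the 18 was 1.56, and of all tested genes 0.01. Here too the filter shapes the median, since Vmn1r42, Vmn1r43 and Vmn1r46 had 1, 2 and 5 control counts. Of the 11, 6 (Vmn1r42, Vmn1r43, Vmn1r46, Vmn1r47, Vmn1r48 and Vmn1r51) lay in 1 cluster of 15 genes on chromosome 6 (chr6:89707540-90271213). Vmn1r43 had 171, 211 and 179 counts in Setdb1 Δ/Δ and 2, 0 and 0 in Setdb1 F/F. It stood at 9.08 ± 0.877 CPM, 251-fold over the 2 control counts (95% exact interval 69.0 to 2070, adjusted p = 1.4e-12). Vmn1r42 had 38, 39 and 22 counts against 1, 0 and 0, a ratio of 88.4 (15.5 to 3530, adjusted p = 2.28e-07). Vmn1r42 and Vmn1r43 overlap on the minus strand and share their 5′ end, and their coding sequences are 92.6% identical, so their counts may have been split between them. In set A both stood at 0 counts, and in the triple mutant Vmn1r42 had 0 counts and Vmn1r43 3, 5 and 0.

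Vmn1r47 (chr6:90016147-90027477, plus strand) and Vmn1r48 (chr6:90035933-90036841, minus strand) lie next to each other, 8456 bp apart, on opposite strands. Their coding sequences are 94.5% identical, with 24 differing bases and a longest identical run of 425 bases, so short reads from that run cannot be told apart. A stretch of 150 coding bases is shown for the pair because it holds the most differences of any such stretch of the pair. Capitals again mark the bases that differ, from GENCODE M21 transcripts on GRCm38, at chr6:90022638-90022787 (plus strand) and chr6:90035942-90036091 (minus strand), both within 1 exon.
Vmn1r47: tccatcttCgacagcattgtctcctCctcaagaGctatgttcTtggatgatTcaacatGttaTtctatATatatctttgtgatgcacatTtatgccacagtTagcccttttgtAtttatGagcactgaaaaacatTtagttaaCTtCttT
Vmn1r48: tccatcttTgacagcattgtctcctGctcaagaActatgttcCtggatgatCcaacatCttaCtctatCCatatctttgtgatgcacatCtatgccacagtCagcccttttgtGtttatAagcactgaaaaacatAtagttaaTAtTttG

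Vmn1r47 had 0.597, 1.0 and 0.585 CPM in Setdb1 F/F and 5.34, 6.08 and 6.58 in Setdb1 Δ/Δ, a log2 fold change of 3.03 (SE 0.219, adjusted p = 8.13e-10). Vmn1r48 had 1.44, 1.90 and 1.75 CPM in Setdb1 F/F and 8.67, 8.66 and 8.96 in Setdb1 Δ/Δ, a change of 2.36 (SE 0.151, adjusted p = 1.37e-10). For both genes every Setdb1 Δ/Δ library lay above every control library. The controls differed, however. Vmn1r48 had 93 counts over the Setdb1 F/F libraries and 0 over wild-type sets A and B together, whereas Vmn1r47 had 29 counts in set A, 22 in set B and 40 in Setdb1 F/F. In the triple mutant Vmn1r48 had 1, 1 and 5 counts, and Vmn1r47 24, 22 and 29. The floxed control line was thus not at the level of Vmn1r48 seen in the wild-type sets. The other members of the cluster that rose were Vmn1r46, from 0.149, 0.0558 and 0.0585 to 0.756, 0.861 and 0.906 CPM (3.12, SE 0.506, adjusted p = 2.4e-05), and Vmn1r51, from 0.314 ± 0.107 to 1.34 ± 0.343 CPM (2.09, SE 0.379, adjusted p = 7.92e-05).

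Outside that cluster, Vmn1r219 had the most CPM and the most TPM of the named members in Setdb1 Δ/Δ, with 0.796, 1.17 and 0.935 CPM in Setdb1 F/F and 13.8, 14.4 and 13.1 in Setdb1 Δ/Δ. The groups were far apart (log2 fold change 3.82, SE 0.151, adjusted p = 1.53e-13), and Vmn1r219 alone made up 19.5% of the family sum. Without it the sum of Setdb1 Δ/Δ was 56.9 ± 3.0 CPM. Its left neighbour Vmn1r218, 13200 bp away on the same strand, had 0.439 ± 0.13 CPM in Setdb1 F/F and 0.806 ± 0.181 in Setdb1 Δ/Δ, under the fold threshold (0.87, SE 0.377, adjusted p = 0.043). Vmn1r88 rose from 0.647, 1.0 and 0.994 to 3.68, 4.40 and 4.62 CPM (2.26, SE 0.228, adjusted p = 7.24e-08), and Vmn1r18 from 0.566 ± 0.0731 to 1.99 ± 0.343 CPM (1.80, SE 0.292, adjusted p = 2.36e-05). Vmn1r76 (1.31, SE 0.501, adjusted p = 0.0241) and Vmn1r55 (1.19, SE 0.296, adjusted p = 0.00143) completed the 11. Vmn1r90 (0.95, adjusted p = 0.00819), Vmn1r81 (0.68, adjusted p = 0.0131) and Vmn1r229 (0.57, adjusted p = 0.00877) had small adjusted p but folds under the threshold. Vmn1r90 overlaps a pseudogene on its own strand, Nlrp5-ps, which held 488 counts in Setdb1 F/F and 889 in Setdb1 Δ/Δ, so part of its reads may belong to it.

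**Figure D3:**
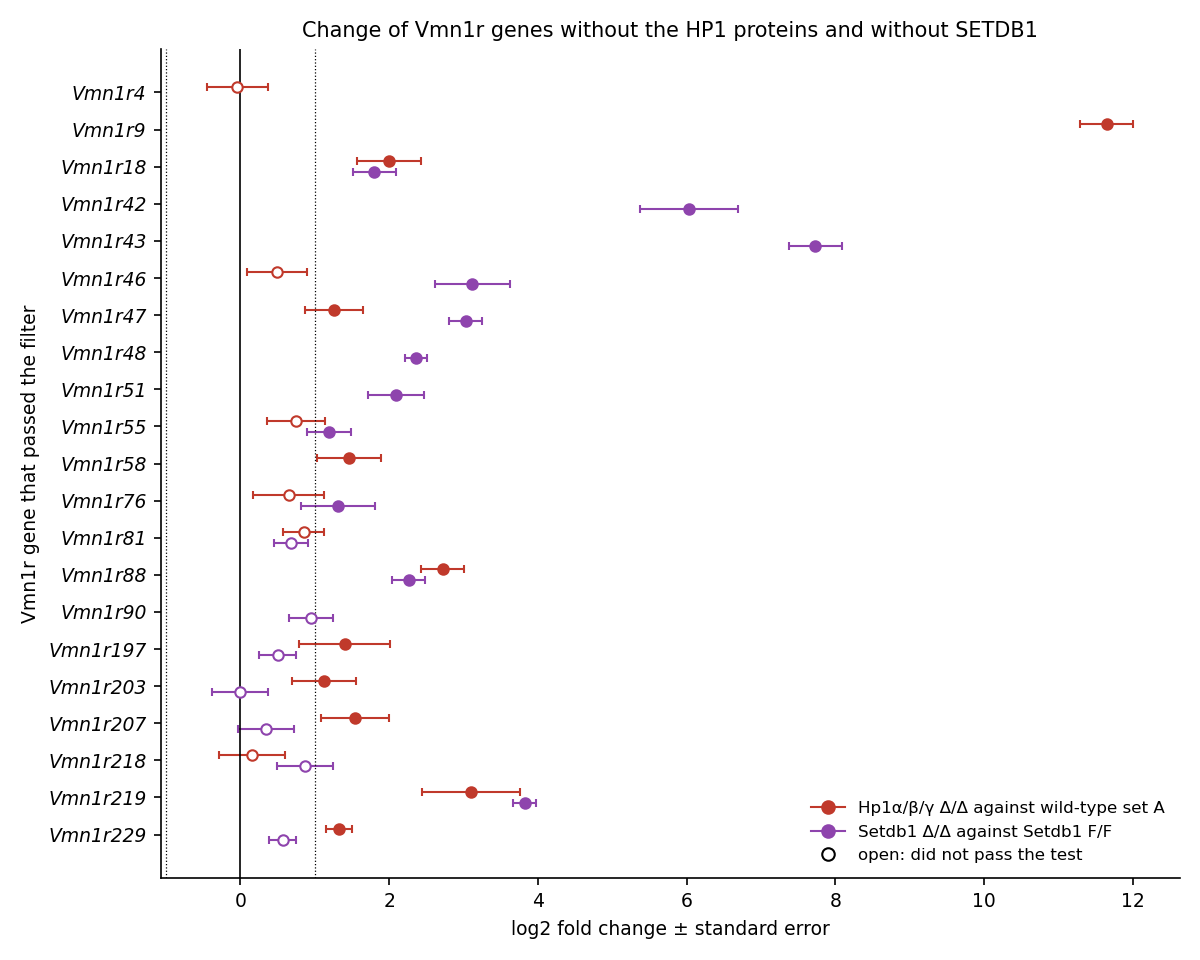
Log2 fold change with its standard error (horizontal axis) of the 21 Vmn1r genes tested in the triple mutant against wild-type set A (red) or in Setdb1 Δ/Δ against Setdb1 F/F (purple). Filled points were counted as changed (10 and 11 genes), dotted lines mark a log2 fold change of 1 in either direction, and the values of Vmn1r9, Vmn1r42 and Vmn1r43 depend on the prior count because their controls held 0 to 2 counts. Standard errors were derived from the test statistic, so the bars of these genes do not carry the full counting error of so few control counts.

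The difference between the triple mutant's effect and that of Setdb1 Δ/Δ was tested in 1 fit of 12 libraries that share no control. At an adjusted p under 0.05, 3 of 21 tested members differed, where 64.9% of all tested genes did. These shares do not compare directly, because most members held few counts and the 21 include Vmn1r9, Vmn1r42 and Vmn1r43, which edgeR could not call. Vmn1r47 rose less in the triple mutant, by a log2 difference of -1.79 (SE 0.431, adjusted p = 0.000884). For Vmn1r46 the difference was -2.66 (SE 0.678, adjusted p = 0.00152), with a log2 fold change of 0.49 in the triple mutant that did not pass (adjusted p = 0.261). For Vmn1r229 it was 0.73 (SE 0.242, adjusted p = 0.0113), with a change in Setdb1 Δ/Δ under the fold threshold. Vmn1r88 (0.43, SE 0.387, adjusted p = 0.35), Vmn1r219 (-0.75, SE 0.807, adjusted p = 0.435) and Vmn1r18 (0.17, SE 0.517, adjusted p = 0.798) rose in both comparisons and did not pass. Vmn1r9 and Vmn1r42 have next to no counts in either control, and edgeR gave no usable error for their difference, nor for that of Vmn1r43. DESeq2 gave log2 differences of 8.78 (SE 1.87, adjusted p = 8.67e-06) for Vmn1r9, -6.44 (SE 2.17, adjusted p = 0.00691) for Vmn1r42 and -4.19 (SE 1.67, adjusted p = 0.0251) for Vmn1r43, along with calls for Vmn1r46, Vmn1r47 and Vmn1r229.

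No member was called by edgeR in the cells that lacked a single HP1 protein. In Hp1α Δ/Δ 0 of 7 tested genes were called (background 4.87% of all genes in either direction), in Hp1β Δ/Δ 0 of 9 (9.1%) and in Hp1γ Δ/Δ 0 of 11 (5.59%). At an unadjusted p under 0.05 the counts were 1 (Vmn1r46 in Hp1α Δ/Δ), 0 and 1 (Vmn1r4 in Hp1γ Δ/Δ), and DESeq2 called 0 in each. Vmn1r229 stood at 2.1 ± 0.521, 2.16 ± 0.577 and 2.37 ± 0.265 CPM in the single mutants, against 2.60 ± 0.235 in set A. Vmn1r219 in Hp1β Δ/Δ had 0.834, 0.365 and 0.385 CPM, all above the 0.231, 0 and 0.0481 of set A. It did not pass the filter there, and reached 2.42 (SE 0.871, adjusted p = 0.0246) in a joint fit of all groups that share set A.

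In Hp1α/β Δ/Δ 0 of 9 tested members were called by edgeR (background 8.15%), with 0 at an unadjusted p under 0.05. DESeq2 called 1, Vmn1r47, which had 0.555, 0.416 and 0.385 CPM in set A and 0.0515, 0.125 and 0.047 in Hp1α/β Δ/Δ. The groups did not overlap (log2 fold change -2.58, SE 1.05, adjusted p = 0.0482 in DESeq2), but the gene was under the filter of the edgeR fit of these groups alone. With edgeR it was called where at least 1 count was enough (-2.48, adjusted p = 0.0283) and in the joint fit of all groups that share set A (-2.48, adjusted p = 0.0034). Vmn1r47 was also below set A in Hp1α Δ/Δ (0.122 ± 0.0571 CPM), Hp1β Δ/Δ (0.143 ± 0.074) and Hp1γ Δ/Δ (0.235 ± 0.117), groups that share the set A libraries. The joint fit called it in Hp1α Δ/Δ (-1.84, adjusted p = 0.0172) and in Hp1β Δ/Δ (-1.61, adjusted p = 0.0248). Set against wild-type set B instead, 4 members were called in Hp1α/β Δ/Δ (Vmn1r4 higher, and Vmn1r18, Vmn1r81 and Vmn1r197 lower), 3 in Hp1α Δ/Δ and 1 each in Hp1β Δ/Δ and Hp1γ Δ/Δ. The share of all genes called in these fits is not given here, so the counts are a description alone.

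In Hp1α/γ Δ/Δ against set B 0 of 10 tested members were called by edgeR (background 23.1%), with 1 at an unadjusted p under 0.05. That gene, Vmn1r18, had 1.47, 1.07 and 1.23 CPM in set B and 2.09, 1.97 and 2.65 in Hp1α/γ Δ/Δ, without overlap and under the fold threshold (0.80, SE 0.249, adjusted p = 0.0337; without replicate 2, 0.91, SE 0.265, adjusted p = 0.00758). DESeq2 called 1 gene, Vmn1r53. Without replicate 2, Vmn1r46 (1.59, adjusted p = 0.0195) and Vmn1r207 (1.16, adjusted p = 0.0457) were called by edgeR, in a fit whose share over all genes is not given here.

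In Hp1β/γ Δ/Δ against set B 3 of 12 tested members were higher and 0 lower, where 7.32% of all tested genes were higher and 4.54% lower. Members such as Vmn1r219 and Vmn1r47 passed the filter only through the mutant, so this tally is a description of the tested members alone. Vmn1r219 had 1, 1 and 1 counts in set B and 14, 14 and 13 in Hp1β/γ Δ/Δ, a ratio of 12.3 (95% exact interval 3.94 to 62.3) and a log2 fold change of 3.48 (SE 0.569, adjusted p = 0.000116). Vmn1r219 was thus higher in Hp1β/γ Δ/Δ, in the triple mutant and in Setdb1 Δ/Δ. In Hp1α/γ Δ/Δ it had 0, 0 and 1 counts, against the 1, 1 and 1 of set B. Vmn1r227 rose from 0.147, 0.671 and 0.41 to 0.702, 1.39 and 1.16 CPM (1.38, SE 0.431, adjusted p = 0.0146), and Vmn1r47 from 0.393, 0.224 and 0.41 to 0.965, 0.654 and 0.813 CPM (1.24, SE 0.38, adjusted p = 0.0131), in each case with all mutant libraries above all controls. DESeq2 called Vmn1r219 alone. With wild-type set A as the control 8 members were called (Vmn1r18, Vmn1r88, Vmn1r197, Vmn1r203, Vmn1r219 and Vmn1r227 higher, and Vmn1r4 and Vmn1r46 lower), and Vmn1r47 was not among them. This count too is a description alone, since the share of all genes called in that fit is not given here.

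The wild-type sets themselves differed in 4 of 11 tested members, 2 higher and 2 lower in set B, where 2.55% of all tested genes were higher and 3.12% lower. A member can pass the filter through the higher set alone, so this tally describes the tested members only. Vmn1r18 had 0.139, 0.508 and 0.433 CPM in set A and 1.47, 1.07 and 1.23 in set B (1.79, SE 0.42, adjusted p = 0.00534). Set B thus held about as much Vmn1r18 as the triple mutant, with 1.57, 1.49 and 1.40 CPM. Vmn1r197 was also higher in set B (1.70, adjusted p = 0.0436), and Vmn1r4 (-1.66, adjusted p = 0.0135) and Vmn1r46 (-1.52, adjusted p = 0.034) were lower. DESeq2 called 1 of these, Vmn1r18. The call of Vmn1r46 was lost in 9 of 10 alternatives, that of Vmn1r197 in 6 and that of Vmn1r4 in 5. Which culture or line the sets came from is not given in the sources used here.

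Grouped by genome position, with genes less than 1 Mb apart in 1 cluster, the 231 genes formed 15 clusters, and the mutants differed in which clusters carried the sum. The chromosome 6 cluster of 28 genes that holds Vmn1r9 (chr6:56924015-58475330) went from 1.58 ± 0.547 CPM in set A to 21.7 ± 0.81 in the triple mutant, 42.7% of its family sum, and from 1.14 ± 0.309 in Setdb1 F/F to 3.12 ± 0.39 in Setdb1 Δ/Δ. The chromosome 6 cluster of 15 genes that holds Vmn1r42 to Vmn1r51 went from 1.06 ± 0.174 to 2.68 ± 0.0775 CPM in the triple mutant, and from 3.18 ± 0.196 to 28.3 ± 1.64 CPM in Setdb1 Δ/Δ, 40% of its family sum. The chromosome 13 cluster of 36 genes (chr13:22084440-23253906) went from 2.64 ± 0.223 to 6.32 ± 0.0289 and from 5.46 ± 0.348 to 20.3 ± 0.866 CPM. The chromosome 17 cluster of 14 genes went from 2.82 ± 0.241 to 7.53 ± 0.62 CPM in the triple mutant and from 2.53 ± 0.124 to 4.16 ± 0.344 CPM in Setdb1 Δ/Δ, and the chromosome 7 cluster of 24 genes that holds Vmn1r81 and Vmn1r88 from 2.85 ± 0.681 to 8.71 ± 1.24 and from 3.22 ± 0.178 to 8.98 ± 1.97 CPM. These 5 clusters were higher in both mutants than in their controls. Within a cluster the counts sat in few genes, as the silent neighbours of Vmn1r9 show. A cluster sum was given no test.

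**Figure D4:**
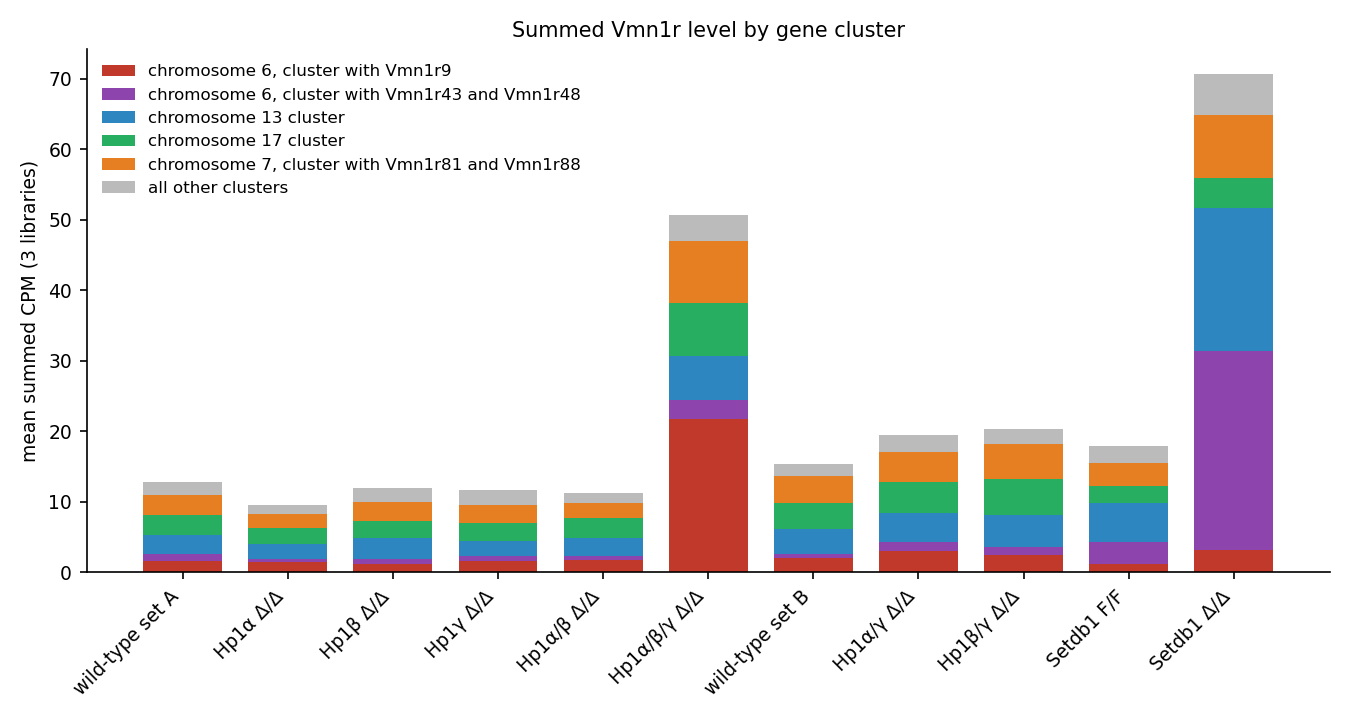
Mean summed CPM of the Vmn1r genes (3 libraries per group), stacked by gene cluster. The red segment, the chromosome 6 cluster with Vmn1r9, is 21.7 CPM in the triple mutant, and the purple segment, the chromosome 6 cluster with Vmn1r43 and Vmn1r48, is 28.3 CPM in Setdb1 Δ/Δ.

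Levels of different genes can be compared only per length, for which the deposited transcript levels, scaled for length and to a sum of 1000000 (TPM), were used. In the triple mutant Vmn1r9 had 37.2 ± 1.91 TPM, Vmn1r4 19.3 ± 9.4 (18.2, 29.2 and 10.5), Vmn1r88 4.76 ± 1.26, Vmn1r219 1.95 ± 1.0 and Vmn1r229 1.09 ± 0.0896 TPM. The spread of Vmn1r219 reached that of Vmn1r229, so their order is not fixed, whereas every Vmn1r9 library lay above every library of the other 4 genes. The TPM of Vmn1r4 rests on 53 counts. In Setdb1 Δ/Δ Vmn1r219 had 5.80 ± 0.402, Vmn1r88 4.09 ± 1.22, Vmn1r48 4.05 ± 0.0971, Vmn1r47 3.63 ± 0.262 and Vmn1r43 1.63 ± 0.125 TPM. The spread of Vmn1r88 covered the means of Vmn1r48 and Vmn1r47. The Vmn1r48 libraries, at 4.03, 3.97 and 4.16 TPM, all lay above those of Vmn1r47, at 3.87, 3.35 and 3.67.

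The TPM of a gene depends on the transcript lengths that the estimate gave it, and for some members this shifted between groups. Dividing a group's mean counts by its mean TPM gives the counts that stand behind 1 TPM, where the median gene had 26.1 to 51.3 per library. For Vmn1r229 the value stayed between 113 and 193 and for Vmn1r81 between 157 and 256 wherever it could be computed. For Vmn1r88 it was 120 in set A and 142 in set B but 20.4 in the triple mutant and 21.4 in Setdb1 Δ/Δ, so that Vmn1r88 rose from 0.113 ± 0.0503 to 4.76 ± 1.26 TPM in the triple mutant while its CPM rose from 0.636 ± 0.219 to 4.32 ± 0.561. For Vmn1r219 it was 6.86 in set A and 9.94 in the triple mutant, but 124 in Hp1β/γ Δ/Δ, 55.9 in Setdb1 F/F and 48.7 in Setdb1 Δ/Δ. Vmn1r4 had under 1 count for each TPM in set A and all mutants compared with it (0.561 to 0.919), with 29.9 ± 9.11 TPM in set A from 51 counts, and 7.36 or more in the remaining groups that could be computed. A TPM of Vmn1r4 or Vmn1r219 therefore does not compare across these groups. The transcript makeup behind these values was not tested.

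**Figure D5:**
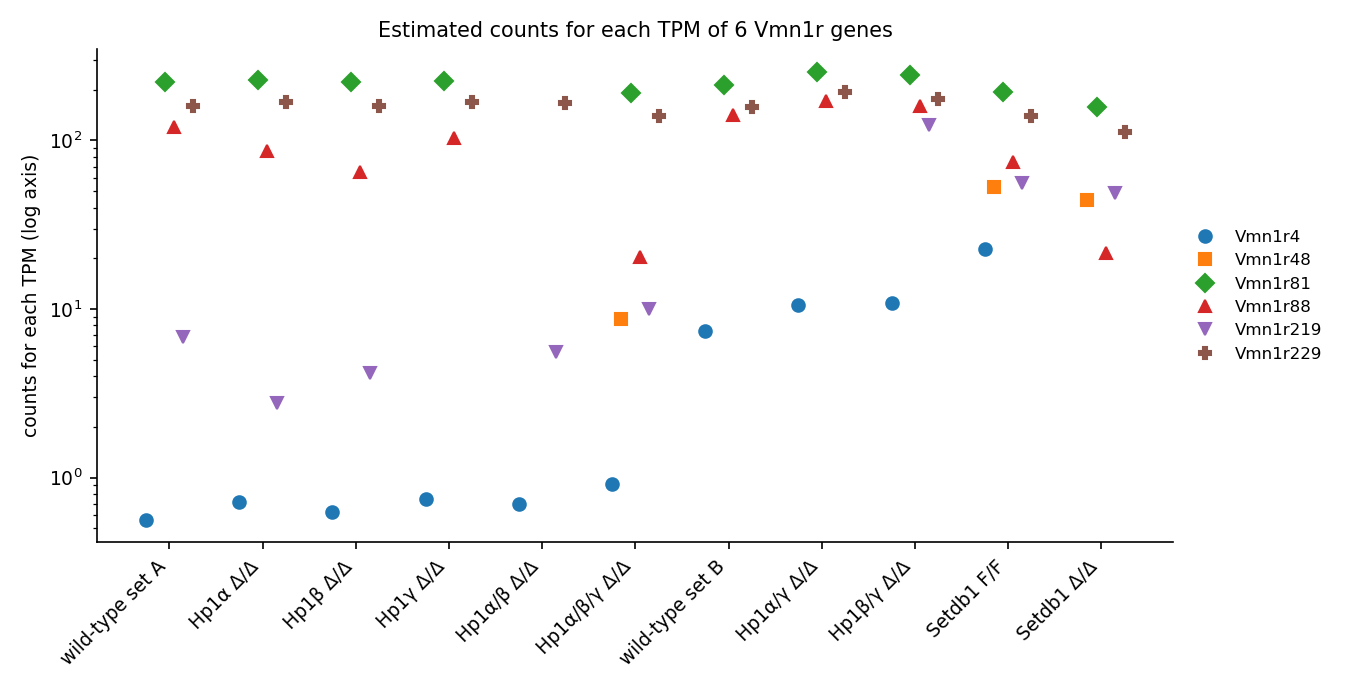
Estimated counts for each TPM (log axis) of 6 Vmn1r genes by group, where the group's mean TPM was at least 0.1. Vmn1r81 and Vmn1r229 stay within 113 to 256 in all groups shown, whereas Vmn1r88 drops to 20.4 and 21.4 in the triple mutant and Setdb1 Δ/Δ, and Vmn1r4 and Vmn1r219 differ between wild-type set A with its mutants and the remaining groups.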

How the data were processed

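RNA was extracted with TRIzol from 33 libraries of ESCs in 11 groups of 3, and libraries were made with a TruSeq RNA kit. The submitters' processing notes name TopHat2 2.1.1, RSEM, edgeR and GRCm38.p5. The authors deposited estimated counts (expected counts, not normalized) and TPM for 55487 genes, of which 55227 matched GENCODE M21 by identifier. The strand setting of the counting is not given in the sources used here. The tables also hold the authors' fold changes and adjusted p-values, which were not used. Groups came from the labels.

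Estimated counts, 12.9% of them not whole, were rounded. Totals ran from 17330936 to 25743149 per library (median 21522569), and this depth leaves most V1R genes at a few counts. Each comparison was fitted on its own libraries with edgeR 4.0.16 in R 4.3.3 (filterByExpr with a minimum count of 10, TMM scaling, quasi-likelihood test), with Benjamini-Hochberg adjustment over all genes tested. Calls needed an adjusted p under 0.05 and a log2 fold change over 1 in either direction. The SE of an edgeR value is the absolute log2 fold change over the square root of the test's F statistic. The difference between the effects was called on the adjusted p alone. Code was tested on simulated data. Alternatives were DESeq2 1.42.0, other scalings, filters and thresholds, a joint fit, the other wild-type set, a block for replicate number, and each library left out.

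Named members were Vmn1r9, the 6 called members of largest absolute log2 fold change in each comparison and the 10 of highest mean CPM, along with the targeted genes, the neuron's signalling genes and the genes next to a named member. Vmn1r51, Vmn1r53, Vmn1r55 and Vmn1r76 were named after their values were seen. The members and lists were chosen with earlier results of these data known. The 1 Mb cluster gap, the length limit of 2000 bases and the counts for each TPM (at a mean of 0.1 TPM or more) were chosen after seeing the data. Coordinates are GRCm38.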

Additional observations from a re-analysis of the deposited data

Results flagged for a closer look

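The effects of the triple mutant and of Setdb1 Δ/Δ differed, by edgeR's test of the difference with Benjamini-Hochberg adjustment, for 3 members. For Vmn1r47 the log2 difference (triple mutant minus Setdb1 Δ/Δ) was -1.79 (SE 0.431, adjusted p = 0.000884), and with the triple mutant set against wild-type set B it was -1.39. For Vmn1r46 the log2 difference was -2.66 (SE 0.678, adjusted p = 0.00152). With set B it was -1.13 and no longer passed, and Vmn1r46 was itself lower in set B than in set A, a call lost in 9 of 10 alternatives. For Vmn1r229 the log2 difference was 0.73 (SE 0.242, adjusted p = 0.0113), and with set B 0.55. All 3 Setdb1 Δ/Δ libraries were above all 3 Setdb1 F/F libraries for each of these genes, and all 3 triple mutant libraries above all 3 libraries of set A.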

How the results depend on the processing

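In the triple mutant against set A and in Setdb1 Δ/Δ, the 10 and 11 calls became 18 and 19 with all genes of at least 1 count and 1 and 7 where every library needed 10 counts or more. Against Hp1α/β Δ/Δ the 10 calls became 17 and 3 with these filters, and the calls of Hp1β/γ Δ/Δ and between the wild-type sets became 0 with the stricter. Fewer members are tested there. With DESeq2 1 member was called in each of Hp1β/γ Δ/Δ, Hp1α/γ Δ/Δ, Hp1α/β Δ/Δ and set B against set A, and 6 members differed between the effects. With at least 1 count 1 was called in each of Hp1β Δ/Δ, Hp1γ Δ/Δ, Hp1α/γ Δ/Δ and Hp1α/β Δ/Δ. The joint fit called 1 in Hp1α Δ/Δ, 2 in Hp1β Δ/Δ and 1 in Hp1α/β Δ/Δ. The other wild-type set gave 3 calls in Hp1α Δ/Δ, 1 in Hp1β Δ/Δ, 1 in Hp1γ Δ/Δ, 4 in Hp1α/β Δ/Δ, 3 in Hp1α/γ Δ/Δ and 8 in Hp1β/γ Δ/Δ, and turned Vmn1r197 in the triple mutant to -0.28. Without a fold threshold 1 was called in Hp1α/γ Δ/Δ. The share of all genes called is not given here for any alternative, so such counts are a description alone. The causes were not tested.

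Leaving out 1 library at a time gave 9 to 12 calls in the triple mutant, 10 to 13 in Setdb1 Δ/Δ, 0 to 0 in Hp1α Δ/Δ, Hp1β Δ/Δ and Hp1α/β Δ/Δ, 0 to 1 in Hp1γ Δ/Δ (1 without its replicate 3), 0 to 2 in Hp1α/γ Δ/Δ (2 without its replicate 2), 2 to 3 in Hp1β/γ Δ/Δ, 9 to 11 against Hp1α/β Δ/Δ, 1 to 3 between the wild-type sets and 3 to 5 for the difference.

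The log2 ratio of the family sum was 2.21 with library totals alone in the triple mutant against set A, 2.12 without Vmn1r229 and 1.34 without Vmn1r9. In Setdb1 Δ/Δ it was 2.24, 2.1 without Vmn1r229 and 1.75 without Vmn1r219. Against Hp1α/β Δ/Δ it was 2.41, 2.30 without Vmn1r229 and 1.51 without Vmn1r9. Of the 115 genes seen, 69 had at least 3 counts in a library and 33 at least 10.

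Replicate numbers are shared between groups in the labels, but same-numbered libraries did not deviate together (correlations of -0.062 to 0.056, 0 pairs over 0.1). With the replicate block 8 members were called in the triple mutant, 11 in Setdb1 Δ/Δ, 10 against Hp1α/β Δ/Δ, 3 in Hp1β/γ Δ/Δ and 1 in Hp1γ Δ/Δ. Over all alternatives, 393 of 445 values of named members kept their direction and call, 51 lost the call and 1 reversed.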

Other observations

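The larger chemoreceptor families were also higher in the triple mutant and in Setdb1 Δ/Δ cells, though not in these alone. The 125 type 2 vomeronasal receptor genes (Vmn2r) summed to 35.9 ± 2.62 CPM in wild-type set A and 153 ± 12.3 in the triple mutant, and to 51.4 ± 2.74 in Setdb1 F/F and 195 ± 3.59 in Setdb1 Δ/Δ. Of those tested, 13 of 17 rose in the triple mutant (25.1% of all tested genes rose and 17.1% fell) and 9 of 13 in Setdb1 Δ/Δ (18.5% and 11.4%), and 0 fell in either. The 1117 olfactory receptor genes (Olfr) summed to 54.9 ± 1.76 and 202 ± 5.45 CPM, and to 53.7 ± 2.5 and 178 ± 2.77 CPM. Both families also stood above set B in the double mutants without HP1γ. The Olfr sum was 70.2 ± 2.5 CPM in set B, 169 ± 3.16 in Hp1β/γ Δ/Δ and 126 ± 15.3 in Hp1α/γ Δ/Δ. The Vmn2r sum was 25.6 ± 0.361, 47.4 ± 1.15 and 39.3 ± 3.79 CPM in these groups. In the triple mutant 44 of 57 tested Olfr genes rose and 2 fell, and in Setdb1 Δ/Δ 34 of 46 rose and 0 fell, against the same shares over all genes. A gene that is high in the mutant can pass the filter through the mutant alone. The Vmn2r and Olfr tallies therefore describe the tested genes and not the families. The trace amine-associated receptor genes (Taar, 16 listed) summed to 0.578 ± 0.211 CPM in Setdb1 F/F and 72.8 ± 0.484 in Setdb1 Δ/Δ, but to 0.16 ± 0.0533 in the triple mutant and 0 in set A. Bitter taste receptor genes (Tas2r) reached at most 0.583 ± 0.121 CPM, in Setdb1 Δ/Δ, among these groups.

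The 118 genes listed as Vmn1r pseudogenes, which are not among the 231, summed to 0.471 ± 0.181 CPM in set A and 3.44 ± 0.57 in the triple mutant, and to 1.14 ± 0.147 in Setdb1 F/F and 36.9 ± 1.78 in Setdb1 Δ/Δ. They also summed to 2.22 ± 0.265 CPM in set B, 3.54 ± 0.306 in Hp1α/γ Δ/Δ and 3.84 ± 0.407 in Hp1β/γ Δ/Δ. The sum of the triple mutant was thus not above those of the double mutants without HP1γ, and the wild-type sets differed. A single one, Vmn1r-ps135, had 605, 622 and 688 counts in Setdb1 Δ/Δ and 3, 0 and 0 in Setdb1 F/F. That is 31.0 ± 1.59 CPM, more than any Vmn1r gene in any group on this scale. Vmn1r-ps32 had 3.84 ± 0.219 CPM in Setdb1 Δ/Δ, 0.328 ± 0.0267 in Setdb1 F/F, 0.779 ± 0.095 in the triple mutant and 0 in set A. Vmn1r-ps144 had 0.328 ± 0.0538 CPM in set A, 1.95 ± 0.181 in set B and 1.91 ± 0.16 in the triple mutant, which was thus at the level of set B. These pseudogenes were named after their values were seen.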
